A study of Mus musculus with 2 samples.

Results

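The genes described here are 8 genes of the Meis, Pbx and Pknox families of homeobox transcription factors, *Meis1*, *Meis2*, *Meis3*, *Pbx2*, *Pbx3*, *Pbx4*, *Pknox1* and *Pknox2*. They were chosen by symbol and are 8 of the 22096 gene symbols in the files; the families have further genes, which are not analysed here. The RNA came from mouse forelimbs at embryonic day E13.5, on a mixed strain background, whose cells had been sorted into ScxGFP-positive and ScxGFP-negative populations. ScxGFP is a green fluorescent reporter under control of *Scx* regulatory DNA; scleraxis, the *Scx* product, is a transcription factor that marks progenitors of tendons and ligaments. Each population gave 1 library from 6 pooled forelimbs (3 pairs), and both come from the same stage, tissue and kind of embryo. With 1 library in each group there is no replicate, no error over samples and no test, so every difference below describes these 2 libraries only. Levels are given as FPKM (fragments scaled to transcript length and to the number mapped) from the deposited tables, added up for each gene. The log2 ratio is that of positive over negative cells after adding 1 to each FPKM, which understates the difference of genes at low levels, and a gene is called higher or lower at 2-fold on that scale.

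The proteins of these families belong to the TALE class, named for a 3 amino acid loop extension between the first and second helix of the homeodomain. PBX proteins bind DNA together with Hox proteins and with MEIS or PKNOX proteins (PKNOX is also called PREP), and binding to MEIS or PKNOX helps bring PBX into the nucleus. In the limb bud, *Meis1* and *Meis2* are known as genes of the proximal part, responsive to retinoic acid; *Meis1* is also known for its part in blood stem cells.

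The feature that defines the class is shown here because all 8 genes share it. The loop bases alone do not separate the families, since *Meis1* and *Pbx2* have the same 9, and the wider homeobox is compared after them. Each line gives coding sequence, 5′ to 3′, with the 9 bases of the loop codons in capitals, from the GENCODE M21 transcript that carries the RefSeq accession of the gene's most abundant coding row:
Meis1: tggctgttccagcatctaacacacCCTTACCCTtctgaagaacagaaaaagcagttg
Meis2: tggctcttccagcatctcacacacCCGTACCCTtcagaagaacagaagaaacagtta
Meis3: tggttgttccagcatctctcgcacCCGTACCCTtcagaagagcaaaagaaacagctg
Pknox1: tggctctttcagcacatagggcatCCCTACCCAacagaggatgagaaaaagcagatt
Pknox2: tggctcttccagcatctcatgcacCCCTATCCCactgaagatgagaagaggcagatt
Pbx2: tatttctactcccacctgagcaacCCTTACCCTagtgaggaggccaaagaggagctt
Pbx3: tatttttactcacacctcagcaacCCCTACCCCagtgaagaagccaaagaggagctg
Pbx4: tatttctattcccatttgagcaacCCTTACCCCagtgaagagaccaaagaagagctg
In GRCm38 the loop codons of *Meis2* lie at chromosome 2, 115921737 to 115921745, in exon 9, on the minus strand. Those of *Pknox2* lie at chromosome 9, 36895376 to 36895384, in exon 11, also on the minus strand. Over 189 bases of the homeobox, from 24 codons before the loop to 36 after it, Meis genes shared 83.6% to 85.2% of bases with each other, and the Pbx genes 78.8% to 82.5%. *Pknox1* and *Pknox2* shared 77.2% with each other and 66.1% to 72.0% with Meis genes. Pbx genes shared 44.97% to 53.4% with Meis genes and 45.5% to 51.3% with Pknox genes. Of 24320 stretches of 50 bases in the matched transcripts, 0.592% also stood in an annotated transcript of another gene, most of them (106 of 144) in *Pknox1*. For *Pknox2*, *Meis3* and the 3 Pbx genes the number was 0. The matched *Meis2* transcripts have 2810 to 3718 bases and the deposited ones 4621 to 5010, so part of the latter was not compared. The files list no other gene over the span of any of the 8, which matters because the library chemistry does not mark strand.

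The labels were checked on *Scx* itself, with 134 FPKM in the library labelled positive and 1.69 in that labelled negative. A gene is called measured where 1 library or both reached 1 FPKM, which held for 12096 genes. Of these, 488 (4.03%) passed 2-fold toward the positive and 1207 (9.98%) toward the negative library. Their median log2 ratio was −0.27, so the whole distribution leaned 1.20-fold to the negative side, and 73.8% of the ratios lay below 0. Ratios are therefore also given relative to that median where it decides a direction.

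Of the 8 genes, 7 were measured; *Pbx4* stayed under 1 FPKM in both libraries. *Pknox2* was higher in ScxGFP-positive cells by more than 2-fold, *Meis2* was lower by more than 2-fold (a call that depended on the scaling), and the other 5 were within 2-fold. One higher gene and 1 lower gene of 7 stand beside the 4.03% and 9.98% of all measured genes. The median log2 ratio of the 7 was −0.22, or 0.047 above that of all measured genes, and 4 of the 7 lay above the median of all genes. That order depended on the filter: without it the median was −0.18 for the 8 genes and −0.037 for all genes. *Pknox2* and *Meis2* lay on the outer parts of the distribution, as the histogram of ratios shows. Added over the 8 genes, the libraries held 27.1 (positive) and 33.5 FPKM (negative). The positive sum was 80.9% of the negative sum, beside 73.4% for the sums over all measured genes.

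**Figure D1:**
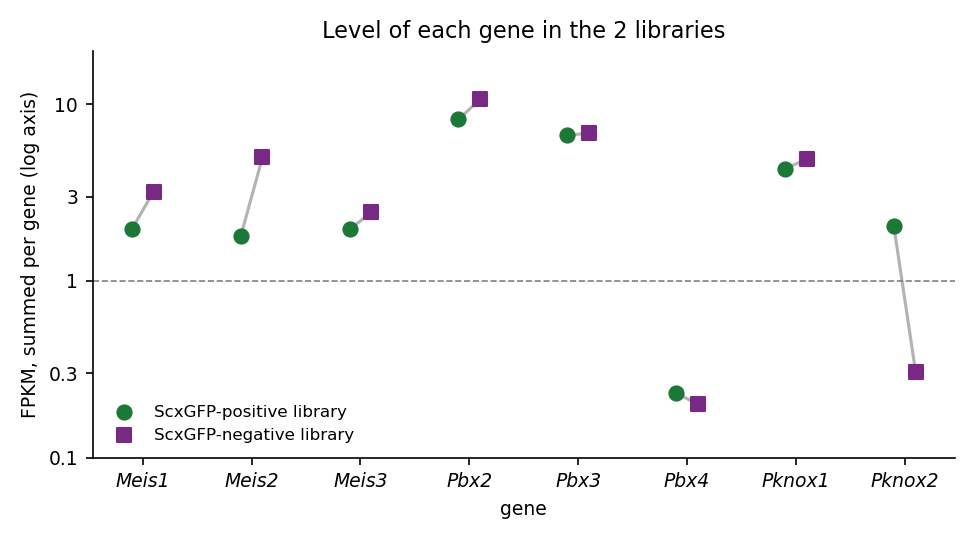
FPKM of each of the 8 genes (log axis) in the ScxGFP-positive library (circles) and the ScxGFP-negative library (squares), 1 library each, with a dashed line at 1 FPKM. *Pknox2* stood at 2.05 against 0.308 and *Meis2* at 1.79 against 4.997, whereas *Pbx2* and *Pbx3* were the highest in both libraries.

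Among the Pbx genes, which encode the partners shared by Hox, MEIS and PKNOX proteins, 2 were the most abundant of the 8 in both libraries. *Pbx2* stood at 8.17 FPKM in ScxGFP-positive and 10.7 in ScxGFP-negative cells, a log2 ratio of −0.35 (NM_017463, mm9 chromosome 17, 34729416 to 34734286). *Pbx3* stood at 6.66 and 6.84 FPKM, a ratio of −0.034 (NM_016768, chromosome 2, 34027429 to 34227556). Both were within 2-fold, and relative to the median of all genes *Pbx2* lay at −0.079 and *Pbx3* at 0.23. Together they held 54.7% (positive cells) and 52.2% (negative cells) of the FPKM of the 8 genes. *Pbx2* exceeded 75.5% of measured genes in positive cells and 77.3% in negative cells. *Pbx4*, a gene best known from the testis, was at 0.234 and 0.2003 FPKM, on 0.719 and 0.644 kilobases of aligned sequence (chromosome 8, 72356603 to 72396191). At that depth no difference between the libraries can be read for *Pbx4*.

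The 3 Meis genes had ratios below 0, with *Meis2* farthest out, although that of *Meis3* turned positive under some scalings. *Meis2*, also listed under the synonym *Stra10* for its response to retinoic acid, stood at 1.79 FPKM in ScxGFP-positive and 4.997 in ScxGFP-negative cells. The positive value was 35.7% of the negative value, a log2 ratio of −1.11 or −0.84 relative to the median of all genes (mm9 chromosome 2, 115687000 to 115890794). It ranked 3 of 8 by level in the negative library and 7 of 8 in the positive library, and 1036 measured genes had a lower ratio. The 2-fold call of *Meis2* depended on the scaling. The log2 ratio was −0.88 with the median ratio of genes set to 1, −0.92 with equal upper quartiles and −0.98 after conversion to TPM, in which both libraries have equal sums, while the direction was the same in each of these.

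*Meis1* had 1.96 FPKM in positive and 3.20 in negative cells; its log2 ratio was −0.50, or −0.24 relative to the median of all genes (chromosome 11, 18780431 to 18918972). It was within 2-fold, and its ratio lay between −0.68 and −0.24 under the alternative scalings, pseudocounts and transcript choice that were tried. *Meis3*, the remaining gene of the family, stood at 1.96 and 2.44 FPKM, a ratio of −0.22 that lay 0.047 above the median of all genes (NM_008627, chromosome 7, 16760729 to 16771852). With the median ratio set to 1 its ratio was 0.012. Summed over the 3 Meis genes, the positive library held 5.70 FPKM and the negative library 10.6, 53.6% of the latter. For the 3 Pbx genes that share was 85.1%, at 15.1 and 17.7 FPKM. Summed over all measured genes, the positive library was at 73.4% of the negative, below the Pbx share and above the Meis share.

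The 2 Pknox genes lay apart from each other. *Pknox2* stood at 2.05 FPKM in ScxGFP-positive and 0.308 in ScxGFP-negative cells, 666.1% of the negative value (mm9 chromosome 9, 36698567 to 36954899). On the FPKM + 1 scale the log2 ratio was 1.22, or 1.49 relative to the median of all genes, and 369 of the measured genes had a higher one. The value in negative cells rests on 2.53 kilobases of aligned sequence, against 16.3 in positive cells, so the size of the fold is poorly bounded. *Pknox2* counted as measured through the positive library alone. With a pseudocount of 0.1 the ratio was 2.40 and with TPM 2.51; with a pseudocount of 5, which outweighs both levels, it was 0.41 and no longer past 2-fold. *Pknox1*, encoding the broadly expressed PREP1, stood at 4.30 and 4.88 FPKM, a ratio of −0.15 or 0.12 relative to the median of all genes (chromosome 17, 31701718 to 31744638). By level among the 8 genes *Pknox2* ranked 4 in positive cells and 7 in negative cells, whereas *Pknox1* ranked 3 and 4. Among the 8 genes, *Pknox1* and *Meis2* were next to each other in the negative library, at 4.88 and 4.997 FPKM. In the positive library *Pknox2*, *Meis1*, *Meis3* and *Meis2* followed each other between 2.05 and 1.79 FPKM. Without replicates it cannot be said whether such neighbours differ.

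**Figure D2:**
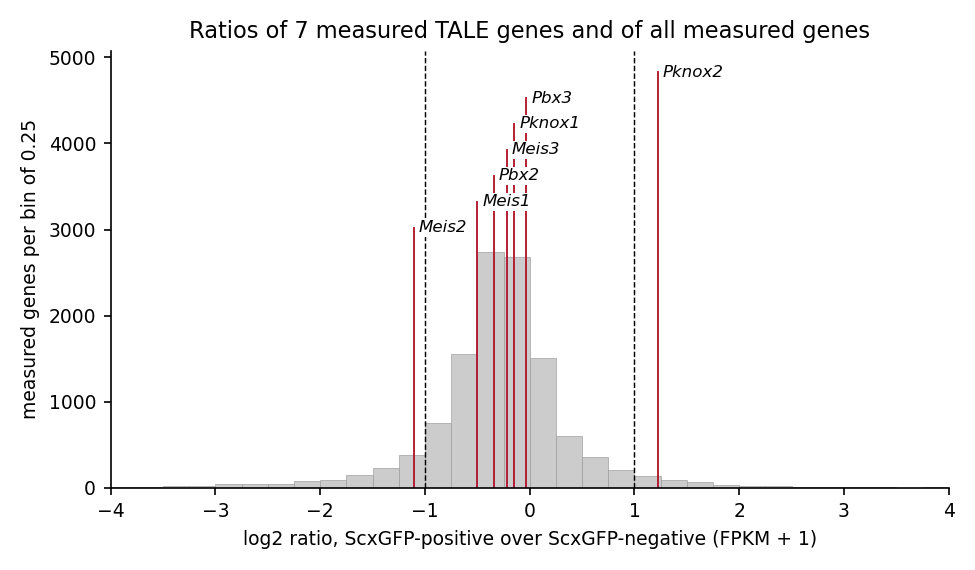
Number of measured genes (vertical axis) by log2 ratio of ScxGFP-positive over ScxGFP-negative cells on the FPKM + 1 scale (horizontal axis, bins of 0.25), with red lines at the 7 measured genes and dashed lines at 2-fold. *Meis2* at −1.11 and *Pknox2* at 1.22 lie outside the dashed lines and the other 5 lie between −0.50 and −0.034; genes beyond ±4 are outside the axis.

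The deposited rows of single transcripts placed the difference of *Meis2* in 2 of its transcripts. The files list 6 *Meis2* transcripts, which differ in their first exon, in a segment of 21 bases at a splice acceptor and in an exon of 95 bases. These stretches are shown because listed transcripts of *Meis2* and *Meis1* differ in them. The 95-base exon tells those of *Meis1* apart, whereas those of *Meis2* also need the first exon, which is not shown. Below are the 21-base segment (capitals) between 15-base flanks and the coding part of the 95-base exon of both genes, stop codon in capitals:
Meis2 splice segment: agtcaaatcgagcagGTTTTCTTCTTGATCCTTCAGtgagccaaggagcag
Meis2 alternative exon: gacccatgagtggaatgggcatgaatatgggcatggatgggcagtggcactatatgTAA
Meis1 alternative exon: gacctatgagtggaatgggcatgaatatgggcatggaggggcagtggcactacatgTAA
In GRCm38, on the minus strand, the *Meis2* segment is chromosome 2, 115867359 to 115867379, and the *Meis2* exon 115866810 to 115866904. The *Meis1* exon is chromosome 11, 18883988 to 18884082, also on the minus strand, and 86.3% of its 95 bases are identical to those of the *Meis2* exon. Of the 95 bases, 56 are coding in each gene. Transcripts with this exon encode the shorter protein end: the coding length of *Meis1* is 1170 bases with it and 1395 without it.

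NM_001136072, which has the upstream first exon and the 95-base exon but lacks the 21-base segment, stood at 0.0268 FPKM in ScxGFP-positive and 2.12 in ScxGFP-negative cells. NM_010825, which has the same first exon and lacks both the segment and the 95-base exon, stood at 0.0104 and 1.15 FPKM. These 2 transcripts made up 2.08% of *Meis2* FPKM in positive cells but 65.3% in negative cells.

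The other 4 *Meis2* transcripts summed to 1.75 FPKM in positive and 1.73 in negative cells, 100.9% of the negative value. That grouping was chosen after the values had been seen. By first exon, transcripts that begin at the upstream exon summed to 0.893 against 4.14 FPKM, and those that begin at the downstream exon to 0.892 against 0.858. By splice segment, transcripts with the 21 bases summed to 1.079 against 1.013 FPKM and those without it to 0.706 against 3.98. The lower group of both splits contains the same 2 transcripts, so the splits are not independent. NM_001159570, which also lacks the segment, stood at 0.669 against 0.719 FPKM. With the upstream exon and the segment, NM_001159567 stood at 0.553 against 0.566 and NM_001159568 at 0.303 against 0.308. The 95-base exon did not separate the libraries in this way: transcripts with it were at 41.6% of the negative value and those without it at 21.5%.

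*Meis1* also differed between its listed transcripts. NM_001193271, with the 95-base exon, stood at 1.96 FPKM in positive and 2.49 in negative cells, and NM_010789, without it, at 0.000141 and 0.715. The transcript without the exon made up 0.0072% of *Meis1* FPKM in positive cells but 22.3% in negative cells. For *Pknox2*, NM_001029838 stood at 2.05 against 0.0829 FPKM and NM_148950 at 0.000154 against 0.225. The former holds an additional noncoding exon of 105 bases (GRCm38 chromosome 9, 36987168 to 36987272), and both have the same coding length of 1422 bases. The positive library thus held nearly all *Pknox2* FPKM in the transcript with that exon (99.99%), and the negative library 27.0%. *Pknox1* was divided more alike, with 53.2% and 61.3% in its coding row NM_016670 and the rest in the noncoding row NR_027493.

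How reads that fit several transcripts were divided is a model estimate, and no interval is given with it. Rows at 0.000141 and 0.000154 FPKM correspond to 1.078 and 1.206 aligned bases, less than a read. In positive cells the *Meis2* transcripts NM_001136072 and NM_010825 rest on only 289.1 and 109.5 aligned bases. The division in *Pknox2* in negative cells rests on 0.691 and 1.84 kilobases. Sums over a gene depend less on this division than single rows do, since the listed transcripts of each gene are close in length.

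**Figure D3:**
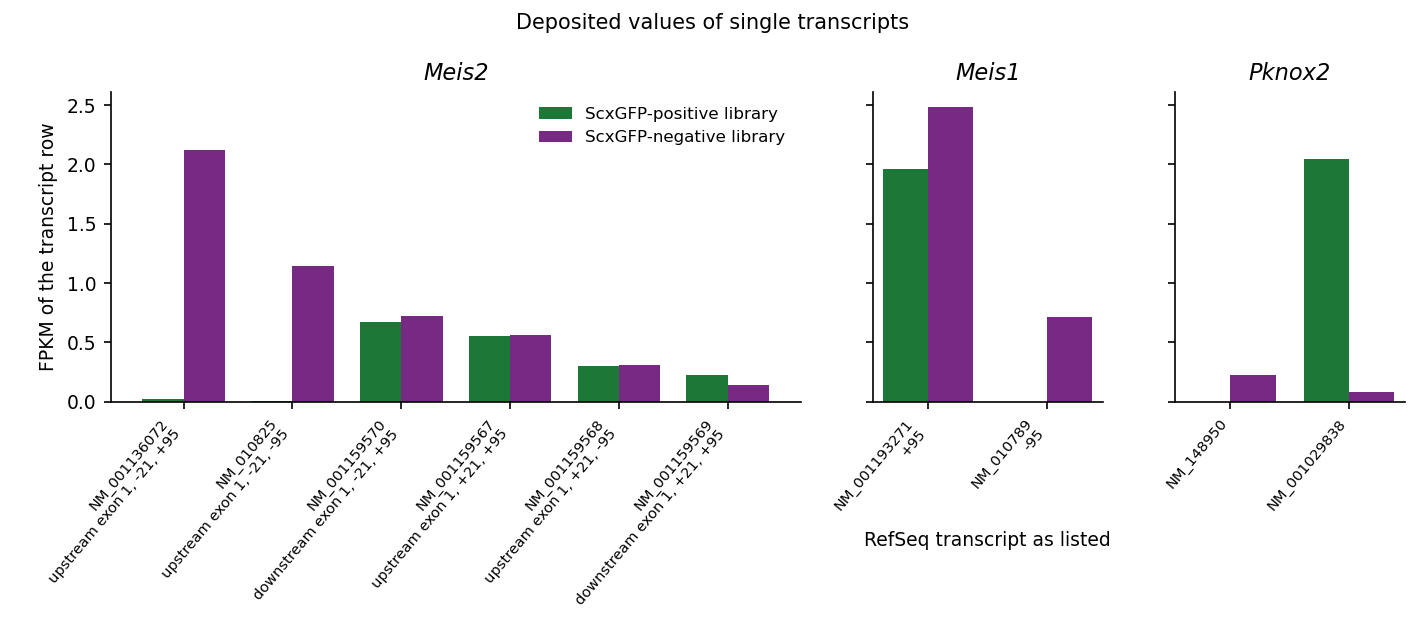
FPKM of each listed transcript of *Meis2*, *Meis1* and *Pknox2* (bars from 0) in the ScxGFP-positive (green) and ScxGFP-negative (purple) library, 1 library each; labels give the first exon and whether the 21-base segment and the 95-base exon are present (+) or absent (-). The negative library holds 2.12 and 1.15 FPKM of the first and second *Meis2* transcripts, which are near 0 in the positive library, whereas each of the other 4 differs by less than 0.1 FPKM.

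Of 9 other genes of the TALE class 7 were measured, and 1 was higher, 1 lower and 5 within 2-fold, beside 4.03% higher and 9.98% lower among all measured genes. *Irx1*, an Iroquois factor gene, stood at 12.3 FPKM in positive and at 3.71 in negative cells (log2 ratio 1.496), and *Irx4*, measured through the negative library alone, at 0.140 and 1.41 (log2 ratio −1.083). *Mkx*, the mohawk gene of tendon, had a ratio of 0.89 (8.97 against 4.36 FPKM). *Irx5* (5.30 against 2.85), *Irx2* (2.44 against 5.33), the repressor gene *Tgif1* (11.4 against 18.5) and *Tgif2* (4.59 against 4.79) were within 2-fold. The median log2 ratio of the 7 was −0.049, which turned to 0.37 after conversion to TPM. *Irx3* and *Irx6* lay under 1 FPKM in both libraries. *Pbxip1*, which encodes a protein that binds PBX proteins, stood at 3.55 and 3.96 FPKM.

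The Meis genes were set beside genes of the limb's proximodistal axis and of retinoic acid. Of 10 genes of the proximal and middle limb, all measured, 6 were at least 2-fold higher in positive cells and 1 was lower, with a median log2 ratio of 1.24. Among all measured genes 4.03% were higher and 9.98% lower. The homeobox gene *Shox2* was at 20.1 against 3.97 FPKM and the T-box gene *Tbx15* at 14.1 against 1.99; the lower gene was *Alx4*, at 1.30 against 3.84. Of 8 measured distal genes, 5 passed 2-fold on the lower side and 1 on the higher, and the median was −1.48. *Msx2* was at 2.003 against 19.8 FPKM and *Hoxd12*, the higher gene, at 13.9 against 6.03. The ratios of *Meis1* and *Meis2*, −0.50 and −1.11, thus lay below the median of the proximal and middle list and above that of the distal list. With only the most abundant transcript of each gene, *Meis2* was at −1.60, below the distal median of −1.48.

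Among 14 measured retinoic acid genes of 18, 2 were higher, 3 lower and 9 within 2-fold, beside 4.03% higher and 9.98% lower among all measured genes. The median of the 14 was −0.38, or −0.11 relative to all genes, and in TPM it was 0.00019. *Aldh1a2*, which encodes the main retinoic acid synthesising enzyme of the embryo, stood at 7.60 against 25.3 FPKM and the retinaldehyde reductase gene *Dhrs3* at 10.8 against 39.1. On the higher side, the binding protein gene *Crabp1* stood at 106.2 against 24.5 and *Stra6*, which encodes the receptor for retinol uptake, at 10.8 against 4.63. *Cyp26b1*, whose enzyme degrades retinoic acid, stood at 9.19 against 8.93. The list thus held genes on both sides of *Meis2*, whose ratio was −1.11.

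The 2 libraries also differ in other cell types, and in sorted pools fewer cells of a type and less RNA per cell cannot be told apart. Markers of blood, vessel, skin and nerve were lower in the positive library. The 5 erythroid markers summed to 155.3 against 6413 FPKM, the 5 macrophage and leukocyte markers to 4.70 against 247.0, the 4 mast cell markers to 5.18 against 372.4 and the 5 megakaryocyte markers to 2.12 against 23.8. The 5 endothelial markers summed to 1.93 against 43.4, the 5 epidermal markers to 9.80 against 293.4 and the 5 glial and nerve markers to 2.84 against 32.4. Of the megakaryocyte sum in negative cells *Pf4*, a platelet chemokine gene, held 21.6 FPKM; the other 4 summed to 0.785 against 2.23, and *Gp9*, a platelet gene, was listed at 0 in the positive library. Of these 34 markers 30 were measured and more than 2-fold lower, beside 9.98% of all measured genes. However, 20 of the 30 were measured through the negative library alone, where a lower ratio was set in part by the filter. The other 4, all of the megakaryocyte list, were within 2-fold.

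Markers of tendon, muscle, pericytes and cartilage had higher sums in the positive library. The 6 tendon markers summed to 200.3 against 8.91 FPKM and 5 of them were at least 2-fold higher, beside 4.03% of all measured genes. Of these sums *Scx*, whose reporter defined the sort, held 134.0 against 1.69 FPKM, so the tendon difference was set in large part by the sort. The 6 skeletal muscle markers, all at least 2-fold higher, summed to 149.4 against 18.5. Most of these 6 were measured through the positive library alone, where a higher ratio was set in part by the filter. The same held for at least 1 higher marker of each of the tendon, pericyte and cartilage lists. Of 5 pericyte and smooth muscle markers 3 were measured, 2 of them higher, with a sum of 26.2 against 5.01, and of 5 cartilage markers 4 were measured, 1 of them higher, at 90.7 against 60.3. *Pknox2* was at 666.1% of its negative level, beside 809.3% for the summed muscle markers, 522.1% for pericytes and 150.5% for cartilage. The summed tendon markers were at 2247%, but that value includes *Scx* and so was set in large part by the sort. *Acta2*, the smooth muscle actin gene, held most of the pericyte sum (19.9 against 2.54 FPKM). *Meis2* was at 35.7% and *Meis1* at 61.3% of the negative level, and the sums of blood, endothelial, epidermal and glial markers were at 1.39% to 8.90%. The part of these cell types in the ratios of the 8 genes was not tested.

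Genes with the same pair of levels were named by the distance between log2(FPKM + 1) values over the 2 libraries, which with 2 points says only that both levels are alike. Nearest to *Pknox2* were *Kcnk2*, a potassium channel gene (2.14 against 0.337 FPKM, distance 0.053), *Fgf7*, a fibroblast growth factor gene (1.93 against 0.308), and *Rbm20*, a splicing regulator gene of muscle (1.94 against 0.329). Among the genes nearest to *Meis2* were *Aagab* (1.81 against 5.02) and *Nebl*, encoding the actin-binding nebulette (1.83 against 5.07). Within a distance of 0.1 there were 6 genes around *Pknox2* and 17 around *Meis2*.

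**Figure D4:**
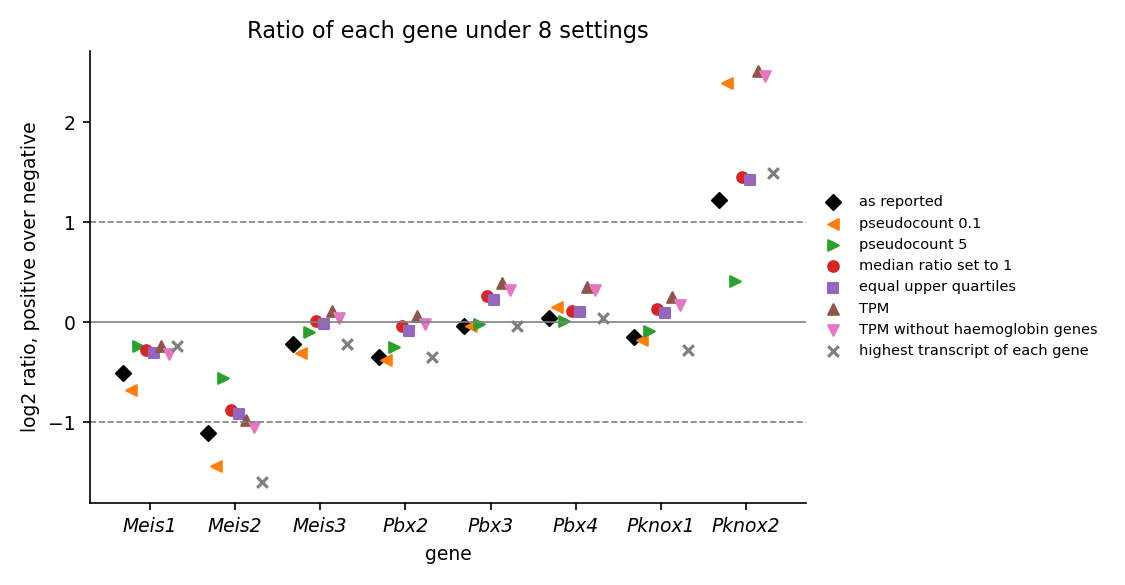
Log2 ratio of ScxGFP-positive over ScxGFP-negative cells for each of the 8 genes (vertical axis) under 8 settings: as reported, other pseudocounts, other scalings, and the most abundant transcript of each gene. Dashed lines mark 2-fold; *Pknox2* lies above 0 and *Meis1* and *Meis2* lie below 0 in all 8, while *Meis3*, *Pbx2*, *Pbx3* and *Pknox1* fall on both sides of 0.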

How the data were processed

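RNA of 2 samples was sequenced, 1 for each sorted population. The submitters' processing notes name TopHat 1.4.1, Bowtie 0.12.7 and the mouse build mm9. Which version of Cufflinks gave the tables is not stated there. Per the file headers, each of 28107 rows holds 1 RefSeq transcript, with its length, coverage, FPKM and a status of the estimate. The authors' deposited FPKM is normalised to transcript length and mapped fragments. The deposited coverage is the estimated depth of aligned bases; coverage times length gave aligned sequence, 0.687 and 0.875 gigabases in all in the positive and negative library. Read counts are unknown, so no count test and no interval was possible. All 16 rows of the 8 genes had status OK, and 6 symbols with a failed row were left out.

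FPKM was summed per symbol. A gene reaching 1 FPKM in 1 library or both was measured, the pseudocount was 1 and the threshold 2-fold. Positions in the files are of mm9, with 1 added to each start. RefSeq accessions matched all 16 rows to 15 GENCODE M21 transcripts on GRCm38, used only for sequences and exon features. Calculations used Python 3.11.15, pandas 2.3.3 and numpy 2.4.6. The ratio calculation was also run on simulated data, with known fold changes put into well expressed genes. That checks the arithmetic only, and not the low levels at which most of the 8 genes lie. Alternatives were pseudocounts of 0.1 and 5, 4 scalings, the most abundant row of a symbol, no filter, and a minimum FPKM of 5. Named were the 8 genes, all measured genes of the TALE list, up to 4 of each other list with the largest ratio sizes and the 3 genes nearest to each of the 2 most different of the 8, of which 1 is not reported here; 4 further list genes (*Alx4*, *Hoxd12*, *Cyp26b1*, *Gp9*) were chosen after their values were seen. The 8 genes and the lists were chosen with earlier results of these data known.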

Additional observations from a re-analysis of the deposited data

How the results depend on the processing

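Across 8 settings that give each gene a ratio, *Pknox2* lay between 0.41 and 2.51 and passed 2-fold in 7 of them. *Meis2* lay between −1.60 and −0.56 and passed in 4; *Meis1* lay between −0.68 and −0.24 and passed in none. *Meis3*, *Pbx2*, *Pbx3* and *Pknox1* changed sign with the scaling and never passed 2-fold. The count of the 8 genes at least 2-fold lower was 0 with the median ratio set to 1, equal upper quartiles, TPM or a pseudocount of 5, and the count higher was 0 with a pseudocount of 5. With a minimum FPKM of 5 both counts were 0, since only *Pbx2* and *Pbx3* were then measured (*Meis2* reached 4.997). The median of the measured genes among the 8 was −0.097 with a pseudocount of 5, 0.012 with the median ratio set to 1, −0.022 with equal upper quartiles, 0.12 with TPM and 0.042 with TPM without haemoglobin genes. The median of all genes under these settings was −0.14, −0.00062, −0.039, 0.10 and 0.027. Without a filter the median was −0.18 for the 8 genes and −0.037 for all genes, so the 8 lay at −0.15 relative to all genes, against 0.047 above with the filter; the unfiltered comparison takes in genes near 0 in both libraries. Among all genes, 222 were higher and 394 lower with a pseudocount of 5, and 323 and 658 with a minimum FPKM of 5. With TPM 1133 were higher and 1164 lower (49.3% higher), and with TPM without haemoglobin genes 1032 and 1237 (45.5%), against 28.8% as reported. With the median ratio set to 1 the share was 43.3% and with equal upper quartiles 41.0%. The cause of these shifts was not tested. No paired analysis was possible because each group has 1 library. Depth limits *Pbx4* and *Pknox2* most, whose lower values rest on 0.644 and 2.53 kilobases.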
